A study of Mus musculus with 2 samples.

Results

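The early response genes of the Egr, Nr4a and Ier families are described here in LSKs from the BM of Scl/tTA-BA mice, before and after induction of BCR/ABL1 (BA), the fusion kinase of chronic myeloid leukemia. The 9 genes are Egr1, Egr2, Egr3, Nr4a1, Nr4a2, Nr4a3, Ier2, Ier3 and Ier5, and they were found by gene name among the 34745 genes of the tables. They were selected on their lower reads and FPKM at week-3 in these same libraries, so the direction of their change was fixed by the choice and is given as a description with no test.

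LSKs are lineage-negative, Sca-1-positive, c-Kit-positive cells, the bone marrow fraction that holds the hematopoietic stem cells and early progenitors. All mice were C57BL/6 and carried both the Scl-driven tTA transactivator and the tTA-responsive BA transgene, so the control group differed from the induced group by doxycycline and time, not by genotype. Doxycycline kept BA silent up to week-0, and week-3 cells were taken 3 weeks after its withdrawal. The age of the mice was not given in the sources used here. Each time point was 1 RNA-seq library from the LSKs of 3 mice mixed together, so the spread between mice is unknown and no difference has a replicate check.

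Egr1, Egr2 and Egr3 encode zinc-finger transcription factors, Nr4a1, Nr4a2 and Nr4a3 encode orphan nuclear receptors that act without a known classical hormone, and Ier2, Ier3 and Ier5 encode small proteins of the immediate early response. Immediate-early genes are transcribed within minutes of a growth factor, cytokine, antigen receptor or stress signal, without new protein synthesis, through factors such as SRF with its Elk partners, CREB and MEF2 that already sit at their promoters. In blood cells, Egr1 and the Nr4a receptors are known for holding stem cells in quiescence, and loss of Nr4a1 together with Nr4a3 causes myeloid leukemia in mice. Many of these transcripts are also induced by tissue dissociation and cell sorting, and with 1 library per time point the sort and the library preparation cannot be told apart from the time point.

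The promoters of the Nr4a genes and of Egr2 are shown first, because they hold letters that CREB and SRF are known to bind. RefSeq promoters of build GRCm38.p6 were matched for 6 of the 9 genes (Egr2, Nr4a1, Nr4a2, Nr4a3, Ier3 and Ier5), and the 250 bases before each start were searched on both strands. The stretches are Nr4a1 at chr15:101266596-101266845 on the plus strand, Nr4a2 at chr2:57124004-57124253 on the minus strand, Nr4a3 at chr4:48045055-48045152 on the plus strand, and a 30-base stretch of the Egr2 promoter at chr10:67537787-67537816 on the plus strand. The Nr4a3 stretch stops where the deposited gene begins. The Nr4a1 stretch lies before the deposited start but inside the GENCODE M21 gene, which begins at position 101254269. Capitals mark the core TGACG of the cAMP response element or its reverse complement CGTCA. In Nr4a1 they also mark the Ets core CCGGAA and the Egr element GCGNGGGCG, the latter on the strand opposite to the printed one. In Nr4a2 they also mark TATAAA, again on the strand opposite to the printed one. In Egr2 they mark the CArG box, the core of the serum response element.
Nr4a1: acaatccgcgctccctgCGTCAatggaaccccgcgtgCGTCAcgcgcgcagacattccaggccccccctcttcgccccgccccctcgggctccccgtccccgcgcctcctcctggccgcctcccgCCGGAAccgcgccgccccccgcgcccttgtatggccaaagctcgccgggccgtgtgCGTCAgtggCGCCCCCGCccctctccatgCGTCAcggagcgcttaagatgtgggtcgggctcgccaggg
Nr4a2: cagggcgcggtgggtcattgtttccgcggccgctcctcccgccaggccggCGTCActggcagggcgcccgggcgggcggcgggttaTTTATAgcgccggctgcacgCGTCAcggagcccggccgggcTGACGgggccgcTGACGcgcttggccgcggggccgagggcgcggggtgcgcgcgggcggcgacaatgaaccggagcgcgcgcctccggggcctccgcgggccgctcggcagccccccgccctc
Nr4a3: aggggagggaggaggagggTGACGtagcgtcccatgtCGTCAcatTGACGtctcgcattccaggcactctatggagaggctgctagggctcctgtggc
Egr2: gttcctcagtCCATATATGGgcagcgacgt

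Each of the 3 Nr4a promoters held 4 TGACG sites, and 0.137% of the 32851 promoters of the same length held at least 4. At least 1 TGACG site was present in 17.8% of all promoters. In Nr4a1 the sites began 233, 213, 69 and 40 bases before the start, in Nr4a2 200, 144, 123 and 111 bases before it, and in Nr4a3 231, 213, 205 and 147 bases before it. The Nr4a3 site at 147 lies past the end of the printed stretch. The full 8-base cAMP element TGACGTCA was in none of the 6 promoters and in 1.55% of all promoters.

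Among the 6 matched genes, the CArG box was found in Egr2 alone, before 4 of its 5 annotated starts, and in 1.47% of all promoters. Starts 3, 4 and 5 share the same site, CCATATATGG, and start 2 has a different one, CCTTTTTTGG. The printed Egr2 site ran from 72 to 63 bases before the third annotated start, between TGACG sites at 111 and 55 bases. Nr4a1 also held an Egr element 60 to 52 bases before its start, the sequence that Egr factors bind, which was present in 3.06% of all promoters. The Ets core was in Egr2 and Nr4a1 and in 12.0% of all promoters, and TATAAA was in Nr4a2 and in 12.4%. The Nr4a element AAAGGTCA was in none of the 6 and in 1.34% of all promoters. No searched motif was found before Ier3 or Ier5. A match describes letters only, and binding at these promoters was not measured.

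**Figure D1:**
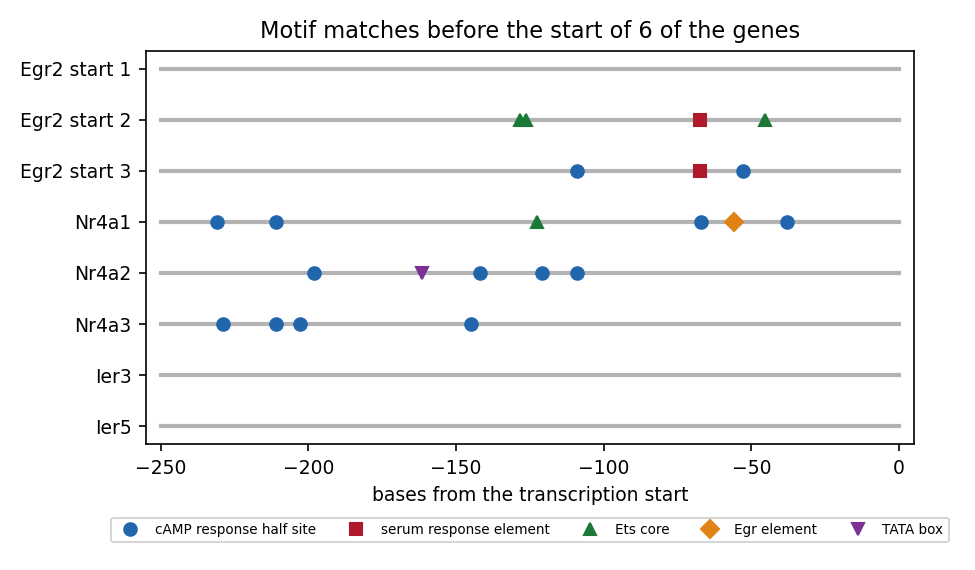
Motif matches in the 250 bases before the transcription start of the genes with a RefSeq promoter, with the distance from the start in bases on the horizontal axis and 1 line per promoter (the first 3 of the 5 Egr2 starts are drawn). The 3 Nr4a lines each carry 4 TGACG sites (cAMP response core), while Ier3 and Ier5 carry no match.

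Gene reads numbered 6356164 in the library of week-0 and 3886695 in that of week-3, with 18002 and 17106 genes read. FPKM, fragments per kilobase of exon per 1000000 reads, was deposited beside each count. A change is the log2 of FPKM at week-3 over FPKM at week-0. Its exact 95% interval covers counting error only and takes reads as independent. Amplified reads are not independent molecules, so the interval can be too narrow even for counting error. Over the 15377 genes above 0 in both libraries the median change was 0.09 on the log2 scale, and the middle 50% of genes lay between -0.61 and 0.68.

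The sort label was checked against defining markers. For scale, 16.2% of the 15377 genes were past 2-fold lower at week-3 and 14.2% past 2-fold higher. Kit was at 16.9 FPKM at week-0 against 11.5 at week-3, and Ly6a, the gene of Sca-1, at 19.8 and 14.8. Summed over the 10 LSK markers, the level was 318 FPKM at week-0 and 127 at week-3, with 4 markers past 2-fold lower and 1 past 2-fold higher. Markers of other cells were checked in the same way. All 7 erythroid markers were past 2-fold lower (1279 against 85.9 summed FPKM), as were 7 of 11 B and plasma cell markers (350 against 82.5). Of 10 myeloid markers, 5 were past 2-fold higher (1793 against 8081), and of 7 mast cell markers 5 were (55.8 against 3047), with the other two, Tpsb2 and Mcpt4, at 0 at week-0. None of 6 T cell markers was past 2-fold among the 4 with reads in both libraries (11.8 against 5.97, with Cd3e and Cd8a at 0 at week-3). Fewer cells of a type and less RNA per cell cannot be told apart in these pooled samples, and the part of these markers in the values below was not tested.

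Together the 9 genes took 99017 reads at week-0, 1.56% of all gene reads, and 9794 reads at week-3, 0.252%. The share was 6.18-fold lower at week-3, a log2 change of -2.63 with a counting interval from -2.66 to -2.60. Summed by family, the Nr4a reads differed most, from 0.534% to 0.0383% of reads, 13.9-fold lower. The Egr genes went from 0.656% to 0.0741%, 8.85-fold lower, and the Ier genes from 0.369% to 0.140%, 2.64-fold lower. The intervals of these 3 family values do not overlap. Each sum rests mostly on its most-read gene. At week-0 Nr4a1 gave 32122 of 33911 Nr4a reads, Egr1 41528 of 41673 Egr reads and Ier2 19415 of 23433 Ier reads. Single genes did not follow the family order: Nr4a2 was 5.53-fold lower, Egr1 8.88-fold and Ier5 6.43-fold.

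Of the 9 genes, 8 had reads in both libraries and 7 of these were at a ratio of 0.5 or below. Over all 15377 genes, 16.2% were at or below 0.5 and 14.2% at or above 2. Since the genes were chosen on this contrast, nothing is read from that difference. At a ratio of 0.25 or below there were 5 of the 9 genes and 5.89% of all genes. Egr3, with no read at week-3, was past the limit only as a bound, and Ier3 did not reach it. With Egr3 at a floor of 3 reads, the median change of the 9 genes was -2.69.

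**Figure D2:**
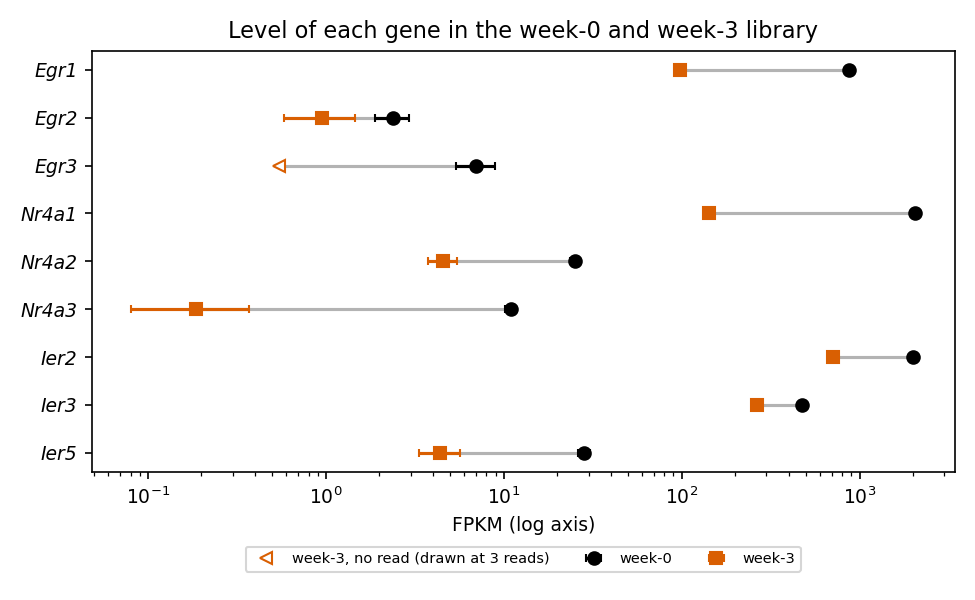
Deposited FPKM of each gene (log axis) in the week-0 library (black circles) and the week-3 library (orange squares), with bars for the 95% counting interval. Every week-3 point lies to the left of its week-0 point, and Egr3, with no read at week-3, is drawn as an open triangle at the level of 3 reads.

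Egr1 (ENSMUSG00000038418), the family member best known as a growth factor and stress responder, had 41528 reads at week-0 against 2859 at week-3. It ranked 5 among all genes by reads at week-0 but 164 at week-3. Its FPKM was 869 at week-0 and 97.8 at week-3, which is 8.88-fold lower (log2 -3.15, interval -3.21 to -3.10). Egr1 alone carried almost all of the Egr reads in both libraries.

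Egr2 (ENSMUSG00000037868, chr10:67535475-67542188), a factor of myelination and of lymphocyte anergy, was a low gene, with 82 reads at week-0 against 20 at week-3. Its FPKM was 2.38 and 0.948, 2.51-fold lower, and its interval on the log2 scale ran from -2.11 to -0.61, which spans the 2-fold limit. Egr3 (ENSMUSG00000033730, chr14:70077445-70080157), which acts beside Egr2 in lymphocytes, had 63 reads and 7.0 FPKM at week-0 and no read at week-3. With a floor of 3 reads in place of 0 in that library, 0.545 FPKM, Egr3 was 12.8-fold lower. Its exact 95% interval, which also counts the error of the 63 reads, reached down to 10.1-fold (log2 -3.34). Egr2 and Egr3 rest on far fewer reads than Egr1, and their shared direction was fixed by the choice of the genes. The deposited Egr3 region leaves out 2699 bases of the GENCODE M21 gene, and reads there were not used here.

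Nr4a1 (ENSMUSG00000023034, chr15:101266846-101274792), also called Nur77 and induced by antigen receptor signals, had 32122 reads at week-0 against 1369 at week-3. Its FPKM was 2043 and 142, 14.3-fold lower (log2 -3.84, interval -3.92 to -3.76). It ranked 17 by FPKM at week-0 and 390 at week-3. Among Egr1, Nr4a1, Ier2 and Ier3, the 4 most-read genes of the set at week-0, Nr4a1 had the largest change. The deposited Nr4a1 region leaves out 12580 bases of the GENCODE M21 gene, and reads there were not used here.

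Nr4a2 (ENSMUSG00000026826, chr2:57106830-57124003), known as Nurr1 from dopamine neurons, had 1021 reads and 25.2 FPKM at week-0 and 113 reads and 4.57 FPKM at week-3, 5.53-fold lower with an interval from 4.55 to 6.77. Nr4a3 (ENSMUSG00000028341, chr4:48045153-48086447), or Nor1, had 768 reads at week-0 against 8 at week-3. Its FPKM of 11.0 and 0.187 gave the largest change of the 8 genes with reads in both libraries, 58.7-fold lower with an interval from 29.6 to 136. Only 10 of the 15377 genes had a lower ratio. The Nr4a genes thus kept no common ratio: Nr4a2 was 2.30 times Nr4a3 in FPKM at week-0 and 24.5 times at week-3.

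Ier2 (ENSMUSG00000053560, chr8:84661331-84662852), a nuclear protein of the serum response, had 19415 reads at week-0 against 4206 at week-3. Its FPKM was 2007 and 711, 2.82-fold lower (interval 2.73 to 2.92). Ier3 (ENSMUSG00000003541, chr17:35821684-35822923), known as IEX-1, a stress-induced regulator of apoptosis and NF-kappaB, had 3429 reads and 477 FPKM at week-0 and 1163 reads and 265 FPKM at week-3. Its 1.80-fold difference, with an interval from 1.69 to 1.93, was the smallest of the set and stayed within 2-fold. Ier5 (ENSMUSG00000056708, chr1:155096361-155099636), which binds the heat-shock factor HSF1 and the phosphatase PP2A, had 589 reads and 28.3 FPKM at week-0 and 56 reads and 4.40 FPKM at week-3, 6.43-fold lower (interval 4.88 to 8.62). The well-read Ier genes, Ier2 and Ier3, differed less between the libraries than Ier5 did, beyond counting error.

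**Figure D3:**
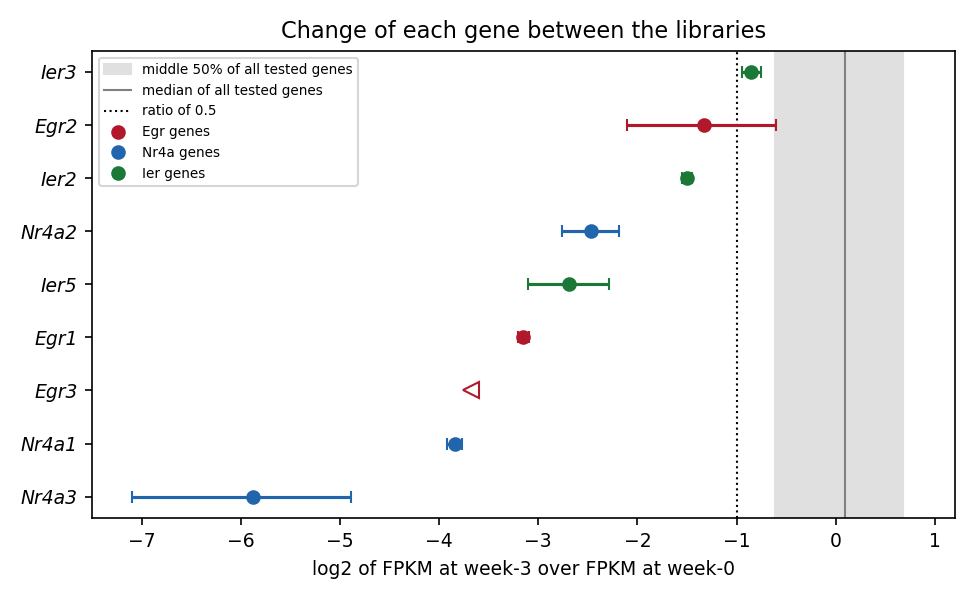
Log2 of FPKM at week-3 over FPKM at week-0 for each gene, with bars for the 95% counting interval and colours for the families. The dotted line marks a ratio of 0.5 and the grey band the middle 50% of all tested genes; Ier3 lies nearest to the band and Nr4a3 farthest, and the open Egr3 triangle is drawn at the floor of 3 reads (-3.68), with its exact interval reaching to -3.34.

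The intervals of all 9 genes lay below 0, and those of 7 lay wholly below a log2 change of -1, Egr2 and Ier3 being the exceptions. The genes were chosen on this same contrast, so nothing is read from these counts. Ordered by size of change, Ier3 and Egr2 overlapped within counting error, and so did Egr2 and Ier2. A gap then separated Ier2 from Nr4a2, which overlapped Ier5. Ier5 overlapped Egr1. Nr4a1 and Nr4a3 each stood apart from the gene before them in this order of the 8 genes with a ratio.

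The makeup of the set differed between the libraries. Egr1, Nr4a1 and Ier2 gave 94.0% of the reads of the 9 genes at week-0 and 86.1% at week-3. Egr1 supplied 41.9% and then 29.2%, and Nr4a1 32.4% and then 14.0%. Ier2 went the other way, from 19.6% to 42.9%, and Ier3 from 3.46% to 11.9%. In FPKM, Nr4a1 stood at 1.02 times Ier2 at week-0, within counting error, and at 0.200 times Ier2 at week-3. Most reads of the set thus came from Ier genes at week-3, and from Egr1 and Nr4a1 at week-0.

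By deposited FPKM, the week-0 order was Nr4a1 and Ier2, Egr1, Ier3, Ier5 and Nr4a2, Nr4a3, Egr3, then Egr2, where the pairs joined by "and" did not differ beyond counting error. At week-3 it was Ier2, Ier3, Nr4a1, Egr1, Nr4a2 and Ier5, Egr2, Nr4a3, then Egr3 at 0. All 9 genes were at 1 FPKM or more at week-0 and 6 were at week-3. These between-gene levels depend on the exon length behind FPKM. The length implied for Egr1 was 7520 bases, longer than its whole 5162-base gene. Against the merged exons of coding transcripts in GENCODE M21, the implied length was 1.68 times for Egr1, 1.60 for Egr2, 1.70 for Nr4a2 and 1.90 for Nr4a3, and it equalled them for the Ier genes.

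On merged exon lengths, in reads per kilobase per 1000000 reads, Ier2 was highest at week-0 at 2007, followed by Nr4a1 at 1907 and Egr1 at 1457. At week-3 Egr1 (164) then stood above Nr4a1 (133), the reverse of their FPKM order. Nr4a2 stood above Ier5 in both libraries on this scale, 42.9 against 28.3 at week-0 and 7.77 against 4.40 at week-3. The length is the same in both libraries, so the change of a gene is not affected.

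**Figure D4:**
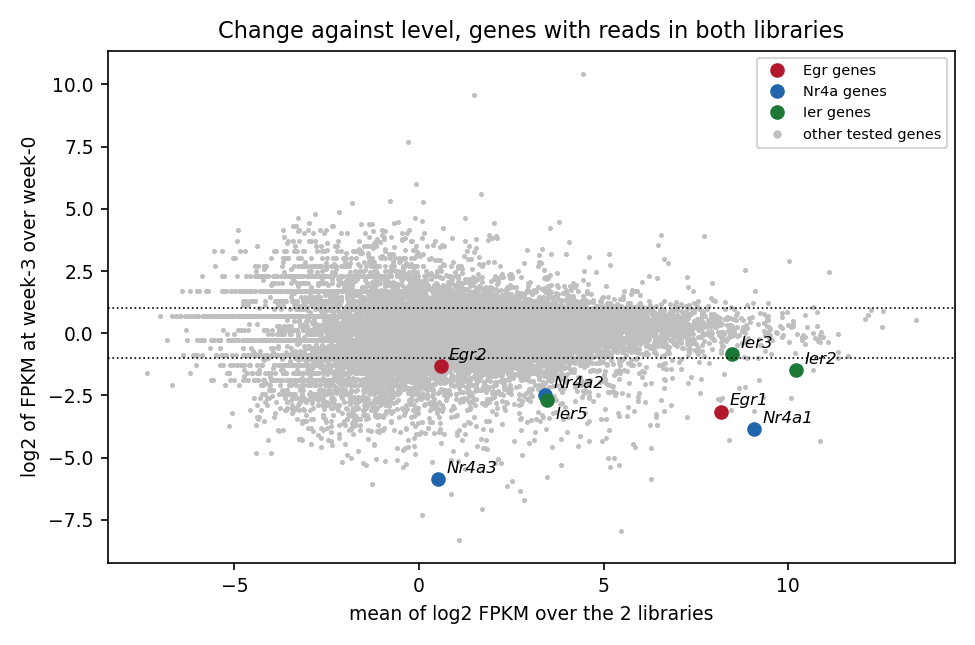
Log2 of FPKM at week-3 over week-0 against the mean log2 FPKM of the 2 libraries, for the 15377 genes with reads in both (grey) and the 8 early response genes among them (coloured by family). Egr1, Nr4a1, Ier2 and Ier3 sit at the high-level end on the right and below 0, and Nr4a3 sits near the lower edge of the cloud.

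High read counts at week-0 set Egr1, Nr4a1 and Ier2 beside other strongly read genes. Of the 71 tested genes with at least 10000 reads at week-0, 17 were at a ratio of 0.5 or below and 12 at 0.25 or below. Over all tested genes these shares were 16.2% and 5.89%. The limit was set on week-0 reads alone, which favours lower ratios at week-3, so nothing is read from these counts. Likeness was searched only among genes with at least 10 FPKM at week-0 and at least 20 reads over both libraries. Of these, the genes with a change nearest to the median of the set were Klf6 (19450 reads at week-0 against 1847 at week-3), Pik3ap1 (555 and 53), Sqstm1 (10541 and 1011), Marcksl1 (7055 and 681) and Elmsan1 (1503 and 140). Their log2 changes lay between -2.71 and -2.66, taken over 2 libraries and 3735 candidate genes, and likeness over 2 libraries says nothing of a wider shared pattern.

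The remaining family members were low. Egr4 had 55 reads at week-0 against 9 at week-3 (log2 -1.90, interval -3.10 to -0.87). Ier5l had 25 and 7 (log2 -1.13), with an interval up to 0.12 that includes no change.

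Other immediate-early genes were set beside the 9 genes. Their list was written with earlier results of these data known, so its direction is given as description only. Of 37 listed, 36 had reads in both libraries. At a ratio of 0.5 or below were 34, against 16.2% of all genes, and none was at 2 or above. Their median log2 change was -2.30 against 0.09 over all genes. Their joint share of reads went from 4.14% to 1.25%, 3.31-fold lower. The AP-1 subunit Fos had 36852 reads at week-0 against 13025 at week-3 (log2 -0.79) and was one of the genes within 2-fold. Zfp36, whose protein speeds the decay of AU-rich mRNAs, had 30697 and 6802 (log2 -1.46). Fos, with reads of the same order as Egr1 at week-0, was 1.73-fold lower where Egr1 was 8.88-fold lower.

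The heat-shock genes, constitutive and stress-induced chaperones in 1 list, differed among themselves. Of 11, 3 were past 2-fold lower, against 16.2% of all genes. These were Dnajb1 (log2 -1.82), Hspa1b (-1.99) and Hspb1 (-2.29, with 1 read at week-3). None was past 2-fold higher, Hspa1a was at 0.22, and the median log2 change was 0.20. The part of stress in these values was not tested. The summed level of the 11 genes was 1299 FPKM at week-0 and 1290 at week-3. Hspa8, the constitutive Hsp70 chaperone, had 19217 and 9071 reads (log2 -0.37), and Hsp90ab1 had 15965 and 11437 (log2 0.23).

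**Figure D5:**
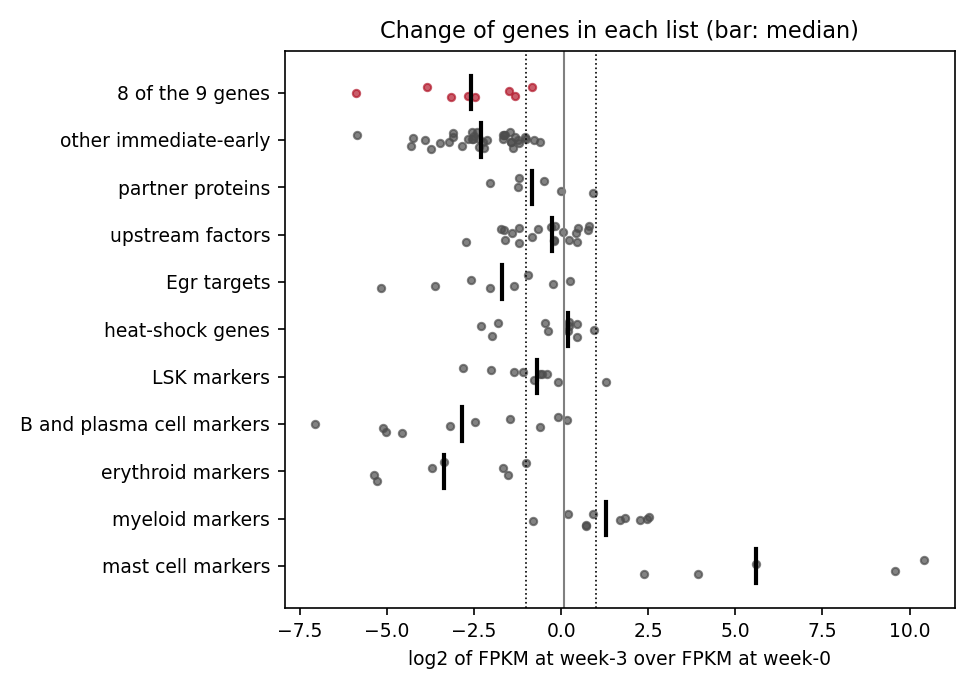
Log2 of FPKM at week-3 over week-0 for each gene with reads in both libraries, by gene list (points), with the list median as a black bar, the median of all genes as a grey line and dotted lines at ratios of 0.5 and 2. The early response lists lie to the left, as do the erythroid markers (median -3.36) and the B and plasma cell markers (-2.84). The heat-shock genes have a median of 0.20 with some members to the left, and mast cell markers lie far to the right.

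Of 20 factors and kinases listed as upstream of these genes, 7 were at a ratio of 0.5 or below, against 16.2% of all genes. None was at 2 or above, and the median log2 change was -0.25. The lower genes included Crem, a CREB relative that is itself cAMP-induced (318 reads at week-0 against 29 at week-3, log2 -2.75). Also lower were the SRF partners Elk4 (log2 -1.73) and Elk1 (-1.61), the MEF2 factors Mef2d (-1.65) and Mef2c (-1.41), and the CREB coactivator Crtc3 (-1.22). Srf itself was at 9.49 FPKM at week-0 against 8.17 at week-3, and Creb1 at 1.13 and 1.96. The SRF coactivator Mkl1 (log2 -0.22), the CREB relative Atf1 (0.05) and the kinase Rps6ka1 (0.78) were within 2-fold.

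Of 6 partner proteins, 3 were past 2-fold lower, against 16.2% of all genes, and the median log2 change was -0.84. Nab2, an Egr corepressor that Egr factors also induce, had 127 reads at week-0 against 19 at week-3 (log2 -2.03, interval -2.81 to -1.33), while its relative Nab1 had 101 and 61 (log2 -0.02, interval -0.50 to 0.45). The intervals of the 2 corepressors do not overlap. Rxra and Rxrb encode retinoid receptors that pair with Nr4a1 and Nr4a2, and they differed in direction, with log2 changes of -1.23 and 0.93. The Ier5 partner Hsf1 was at -1.20 and the PP2A subunit Ppp2r2a at -0.48.

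Of 9 genes known as Egr targets, 8 had reads in both libraries, with a median log2 change of -1.69. Of these 8, 5 were at a ratio of 0.5 or below, against 16.2% of all genes. They were Cdkn1a, the cell cycle inhibitor p21 (14243 reads at week-0 against 1439 at week-3, log2 -2.60), Id3, an inhibitor of bHLH factors (1202 and 60, log2 -3.61), Thbs1 (59 and 1, log2 -5.17, interval -10.5 to -2.64), Tgfb1 (log2 -1.34) and Nab2. Cd44 (log2 -0.95) was within 2-fold. Fasl had 1 read at week-0 and none at week-3, too few to give a direction. These genes have other regulators, and whether Egr proteins act on them here was not measured.

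In GENCODE M21 the main coding transcript has 2 exons in Egr1, Egr2, Egr3 and Ier3, 1 in Ier2 and Ier5 and 8 in each Nr4a gene, all below the median of 9 exons over 12851 coding genes tested. The gene span was below the median of 23621 bases in 8 of the 9, Nr4a3 being the exception at 41295 bases. The main transcript was longer than the median of 2909 bases in Egr1, Egr2, Egr3, Nr4a2, Nr4a3 and Ier5, and shorter in Nr4a1, Ier2 and Ier3. Transcript GC content was above the median of 50.5% in 7 of 9, from 45.6% in Nr4a3 to 60.9% in Ier2. In the 3′ UTR, the nonamer TTATTTATT of AU-rich decay elements was in none of the 9 against 7.13% of 12407 UTRs. The shorter ATTTA was denser than in UTRs of similar length in 6 of 9, with 8.16 per kilobase in Ier3, 5.52 in Nr4a1 and none in Ier2.

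The gene ontology terms in the tables covered 8 of the 9 genes, all but Ier5. All 3 Egr and all 3 Nr4a genes carried the cellular response to organonitrogen compound, a term of 416 genes. The 3 Egr genes shared the cellular response to cAMP, a term of 49 genes, and the 3 Nr4a genes made up 3 of the 5 genes of the response to corticotropin-releasing hormone.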

How the data were processed

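RNA of sorted BM LSKs, 1 library per time point, was sequenced with Illumina protocols. Per the labels the authors' processing notes name TopHat2 2.0.9 and build mm10, and the study names edgeR for differential expression without a dispersion. For each gene the authors deposited raw read counts and FPKM, whose values share an exon length per gene. The counting tool and strand setting are not given in the sources used here. The columns of gene ontology terms were used as deposited.

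With 1 library per group, edgeR's quasi-likelihood test and DESeq2's fit could not be run, so no p-value is given. Exact binomial (Clopper-Pearson) and Poisson intervals at 95% were computed from the deposited counts in Python 3.11.15 with scipy 1.17.1, and a floor of 3 reads per library stood for a count of 0. Genes above 0 FPKM in both libraries entered every count over genes, and the limit was a ratio of 0.5 or 2. Gene IDs and coordinates were compared with GENCODE M21 (GRCm38), and 7 of the 9 genes had identical coordinates. Promoters came from RefSeq GRCm38.p6. Protein sequences were not used here.

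The 9 genes and all gene lists were chosen with earlier results of these data known, and the UTR letters and merged exon lengths after the files were seen. Named were the 9 genes, Egr4, Ier5l, Nab1 and Nab2, members of the partner, upstream and target lists past 2-fold or with at least 500 reads, the 2 most-read genes of other lists, and the 5 genes nearest the set's median change. Some genes that this rule or a list covers are counted but not reported here by name. Other genes named (Srf, Creb1, Dnajb1, Hspa1a, Hspa1b, Hspb1, Kit, Ly6a and genes at 0) were chosen after their values were seen. Alternatives were TMM (edgeR 4.0.16) and median-of-ratios (DESeq2 1.42.0) scaling, pseudocounts of 0.1 and 1, other fold and FPKM limits, and edgeR's exact test at assumed biological coefficients of variation of 0.1 and 0.4. The intervals and the exact test were tested on simulated data.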

Additional observations from a re-analysis of the deposited data

How the results depend on the processing

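The number of the 9 genes past the limit was 7 and ran from 5 (a 4-fold limit) to 8 (a 1.5-fold limit, or Egr3 set to 3 reads, which was chosen after seeing the data) over the settings tried, except for edgeR's exact test at an assumed coefficient of variation of 0.4, which called 2 of them. TMM scaling lowered every log2 change by 0.11 and median-of-ratios scaling by 0.09. The summed share of the set then changed by -2.74 and -2.72 on the log2 scale, and Ier3 stayed within 2-fold at -0.96 and -0.94. With a pseudocount of 1, Nr4a3 was at -3.33 and Egr2, at -0.79, was no longer past 2-fold. The median of the set over the 8 genes with reads in both libraries was -2.58. Over all genes, 2495 were lower and 2191 higher, 53.2% of calls lower. The counts were 2736 and 1896 with TMM, 2693 and 1935 with median-of-ratios scaling, 3931 and 4317 at 1.5-fold, where higher calls outnumbered lower ones (47.7% lower), 906 and 637 at 4-fold, 1619 and 1388 among genes with at least 1 FPKM in either library (14.2% lower), 1548 and 1247 with edgeR at 0.1, and 87 and 29 at 0.4. The log2 change of each of the 8 genes with reads in both libraries stayed below 0 under both scalings and both pseudocounts; the cause of the moved values was not tested. No paired analysis was possible because each time point has 1 library, and for the same reason no replicate could be left out. Depth limits Egr2, Egr3, Nr4a3, Egr4, Ier5l, Nab2, Rxra, Elk1, Thbs1, Hspa1b and Hspb1, which rest on 20 reads or fewer at week-3, and so the Nab1 with Nab2 and Rxra with Rxrb comparisons.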
